A study of Homo sapiens with 16 samples.

Results

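A set of 9 genes covering the aryl hydrocarbon receptor (AHR), genes it controls and aldehyde dehydrogenases were followed across wild-type bronchial epithelial cells and cells with MET exon 14 skipping, with and without hepatocyte growth factor (HGF). They were CYP1A1, CYP1B1, AHR, AHRR, TIPARP, ALDH1A1, ALDH1A3, ALDH3A1 and ALDH3B1, out of 42665 gene names on the array. They were taken by name, with earlier results of these data known, so their counts below are a description. Together they had 17 of 58201 probes, of which 16 of the 34600 tested probes, and the brightest probe of each of the 9 genes was among those tested. 16HBE is an SV40-immortalised line of human bronchial epithelium, which the study describes as nontumorigenic. The 16HBE-ex14 cells came from CRISPR/Cas9 editing of the same line and were 1 clone, clone F, so a difference between the genotypes cannot be told apart from a difference between that clone and its parent. Each genotype, 16HBE-WT and 16HBE-ex14, was measured without and with HGF, the stimulated groups being written 16HBE-WT+HGF and 16HBE-ex14+HGF, with 4 arrays for each of the 4 groups and 16 in all. The titles of the 16HBE-WT+HGF arrays read YY in place of WT, and the arrays were put in this group by their description and genotype labels, which give WT. Cells of all 4 groups were starved for 2 h, and the stimulated groups then received 20 ng/mL HGF for 24 h. The cultures were made a week apart, but the labels do not give the week of each array, so replicate numbers follow slide and row, and the p-values measure only the spread between these arrays.

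AHR is a transcription factor that waits in the cytoplasm in a complex with HSP90 until a ligand such as dioxin, a polycyclic hydrocarbon of smoke or a tryptophan metabolite binds it. It then enters the nucleus, pairs with ARNT and binds DNA at the xenobiotic response element, whose core letters are GCGTG. CYP1A1 and CYP1B1 are its classical targets and oxidise many of its ligands, while AHRR and TIPARP are targets that hold the receptor back, AHRR as a repressor and TIPARP as an enzyme that ADP-ribosylates it. Aldehyde dehydrogenases oxidise aldehydes to acids. ALDH1A1 and ALDH1A3 make retinoic acid from retinal, ALDH3A1 is a further AHR-responsive gene of epithelia, and ALDH3B1 acts on aldehydes that arise from lipids. In airway epithelium these genes are known for handling inhaled toxicants and for the retinoid supply of the tissue.

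Promoter sequences show which of the genes carry the AHR core letters next to their start. Windows of 300 bases, from 250 before the start to 50 after it, were taken from RefSeq (GRCh38.p14) and matched 7 of the 9 genes, all but CYP1B1 and ALDH3A1. GCGTG was searched on both strands, where on the opposite strand it reads CACGC. The 7 genes had 11 windows, of which 6 held these letters, against 36.5% of all 35116 windows of this length. The 6 windows belonged to 5 genes, CYP1A1, AHR, AHRR, TIPARP and ALDH1A3. ALDH1A1 and both windows of ALDH3B1 had no match, which says only that these letters are not in these windows. The 250 bases before the first start of 4 genes are shown because they set a classical target and the repressor beside the ALDH genes with the clearest differences. They are written 5′ to 3′ on the gene's own strand, and capitals mark GCGTG, at 57 bases before the start in CYP1A1 (position -57) and at -30 in AHRR.
CYP1A1 (chr15:74725529-74725778, minus strand): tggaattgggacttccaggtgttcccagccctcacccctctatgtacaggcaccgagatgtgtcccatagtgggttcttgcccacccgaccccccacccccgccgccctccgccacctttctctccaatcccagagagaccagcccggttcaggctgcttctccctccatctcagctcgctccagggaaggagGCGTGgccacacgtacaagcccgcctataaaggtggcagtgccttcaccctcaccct
AHRR (chr5:321464-321713, plus strand): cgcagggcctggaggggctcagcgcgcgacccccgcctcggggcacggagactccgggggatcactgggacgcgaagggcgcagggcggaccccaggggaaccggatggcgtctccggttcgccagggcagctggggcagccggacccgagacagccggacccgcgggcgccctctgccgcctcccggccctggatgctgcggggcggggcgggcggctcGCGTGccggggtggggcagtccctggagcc
ALDH1A1 (chr9:72953054-72953303, minus strand): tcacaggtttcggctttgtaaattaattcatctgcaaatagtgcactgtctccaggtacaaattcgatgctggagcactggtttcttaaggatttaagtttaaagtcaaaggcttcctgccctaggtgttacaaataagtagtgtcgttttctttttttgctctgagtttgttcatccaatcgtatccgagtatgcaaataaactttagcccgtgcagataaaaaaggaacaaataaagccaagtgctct
ALDH3B1 (chr11:68008297-68008546, plus strand): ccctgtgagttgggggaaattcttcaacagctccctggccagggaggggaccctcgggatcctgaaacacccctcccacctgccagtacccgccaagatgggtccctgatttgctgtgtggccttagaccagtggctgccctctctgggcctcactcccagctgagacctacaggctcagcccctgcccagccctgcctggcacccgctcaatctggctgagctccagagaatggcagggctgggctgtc

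All levels below are log2 signals minus the 75th percentile of the same array, so a level of 0 is a spot as bright as that percentile, and levels of different probes are not comparable. The 75th percentile itself lay between 139.5 and 262.8 intensity units, and the share of probes well above background on an array ran from 49% to 60.3%. No spot was saturated. A gene is given by its brightest probe, and it is said to have changed when limma's adjusted p (Benjamini-Hochberg over all tested probes) was below 0.05 and the fold change above 1.5. Of the called probes for HGF in 16HBE-ex14, 52.24% were higher, against 24.11% with scaling to the array median and 41.72% with scaling to spike-in RNA. For 16HBE-ex14 against 16HBE-WT without HGF the same shares were 48.03%, 71.82% and 64.35%, and 60.04% with normexp background correction. With HGF in both genotypes they were 49.05%, 65.97% and 56.54%. Scaling to the median moved the median change of all probes with HGF in 16HBE-ex14 from 0.05 to -0.11 and the median difference between the unstimulated genotypes from -0.02 to 0.12. The 5 markers of simple epithelium (EPCAM, CDH1, KRT8, KRT18 and KRT19) were well above background on all 16 arrays.

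**Figure D1:**
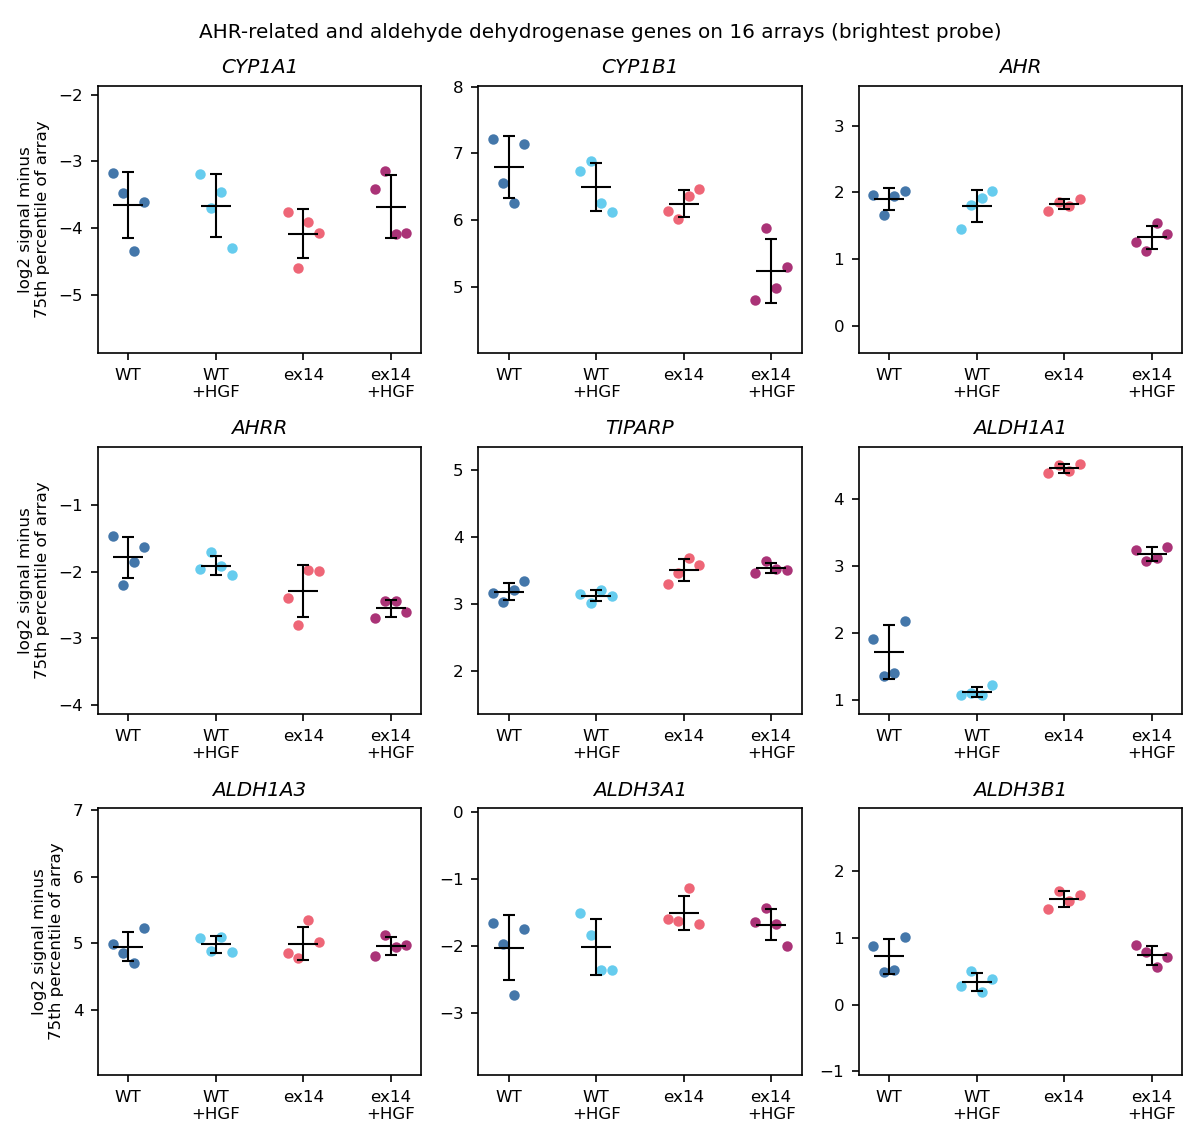
Levels of the 9 genes (brightest probe, log2 signal minus the 75th percentile of the array) on the 16 arrays, with 1 point per array and black bars for mean ± SD of 4 arrays. Each panel spans the same number of log2 units. ALDH1A1 stands at 4.39 to 4.53 on the 16HBE-ex14 arrays against 1.35 to 2.18 on the 16HBE-WT arrays, while ALDH1A3 lies between 4.71 and 5.35 on all arrays.

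Without HGF, ALDH1A1 and ALDH3B1 were higher in 16HBE-ex14 than in 16HBE-WT cells, and the other 7 genes did not pass the thresholds. These 2 of 9 genes compare with 9.25% of all 26356 genes tested, and both were higher, as were 4.51% of all genes. The median difference of the 9 genes was 0.05, against -0.02 over all genes.

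ALDH1A1, which makes retinoic acid from retinal and is widely used as a marker of progenitor cells, showed the largest difference of the 9 genes. Its brightest probe lies on chromosome 9 (hg19, 75516136 to 75516195). The 16HBE-WT arrays read 1.92, 1.35, 1.40 and 2.18, and the 16HBE-ex14 arrays 4.39, 4.51, 4.42 and 4.53. All 16HBE-ex14 arrays were thus above all wild-type arrays, and the wild-type arrays were the more spread. The means were 1.71 ± 0.40 and 4.46 ± 0.07 (SD, n = 4 each), a log2 difference of 2.75 (standard error 0.15, 6.74-fold, limma adjusted p = 4.05e-08). A second probe of the gene (chromosome 9, 75540401 to 75540460) had means of -1.09 ± 0.33 and 0.85 ± 0.08 (SD, n = 4), a difference of 1.94 (standard error 0.14, adjusted p = 4.48e-07). As these are bulk RNA measurements, more cells that express a gene and more RNA per cell cannot be told apart. Within slide 1 alone and slide 2 alone the brightest probe differed by between 2.69 and 2.82, with adjusted p of at most 0.013.

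ALDH3B1, the aldehyde dehydrogenase of lipid-derived aldehydes, was measured by 4 probes on chromosome 11. The brightest (67795665 to 67795724) read 0.88, 0.49, 0.53 and 1.02 on the 16HBE-WT arrays and 1.43, 1.70, 1.56 and 1.64 on the 16HBE-ex14 arrays. The groups did not overlap. The mean rose from 0.73 ± 0.26 to 1.58 ± 0.12 (SD, n = 4), a difference of 0.85 (standard error 0.13, 1.81-fold, limma adjusted p = 0.000338). Within single slides the difference was 0.88 (adjusted p = 0.0553) and 0.83 (0.0862), so with the 8 arrays of 1 slide it no longer passed. The probes at 67793516 to 67793575 and at 67792022 to 67792081 were also called, with differences of 0.68 (adjusted p = 0.00374) and 0.83 (0.00217). The probe at 67786661 to 67786720 was higher by 0.42 (adjusted p = 0.00654), under the fold change limit.

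The AHR genes were closer together in the unstimulated genotypes. TIPARP, the enzyme that restrains AHR by ADP-ribosylation, read 3.17, 3.03, 3.21 and 3.34 in 16HBE-WT and 3.30, 3.46, 3.68 and 3.58 in 16HBE-ex14. The ranges overlapped, and the difference of 0.32 (standard error 0.10, limma adjusted p = 0.0322) was 1.25-fold, below the fold change limit. By adjusted p alone 3 of the 9 genes passed, against 18.2% of all genes. AHRR, the repressor of AHR, read -1.47, -2.20, -1.86 and -1.63 against -2.40, -2.80, -1.98 and -1.99, a difference of -0.50 (standard error 0.18, adjusted p = 0.0741). With 1 array left out it passed both limits in 2 of 16 fits, without 16HBE-WT replicate 2 (-0.64, limma adjusted p = 0.0299) or without 16HBE-ex14 replicate 3 (-0.60, 0.0496). The other 14 fits did not pass, with adjusted p up to 0.21. Within slide 1 the AHRR difference was -0.76 (adjusted p = 0.17) and within slide 2 it was -0.24 (0.41). AHR itself stood at 1.90 ± 0.16 and 1.82 ± 0.08 (SD, n = 4), a difference of -0.08 with a 95% interval from -0.36 to 0.20. CYP1B1 stood at 6.79 ± 0.46 and 6.25 ± 0.20 (SD, n = 4), a difference of -0.55 (interval -1.10 to 0.01, adjusted p = 0.175).

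HGF in 16HBE-ex14 cells lowered the same pair, ALDH1A1 and ALDH3B1, with no called change in the other 7 genes. Among all genes 2.11% were called and 0.986% were called lower. The 9 genes had a median change of -0.26, against 0.06 over all genes. This comparison shares the unstimulated 16HBE-ex14 arrays with the one above, so the values of each are given on their own.

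For ALDH1A1 the stimulated arrays read 3.25, 3.07, 3.13 and 3.29, all below the unstimulated ones and all above the wild-type arrays. The mean was 3.19 ± 0.10 (SD, n = 4), so the gene fell by 1.28 on the log2 scale (standard error 0.15, 2.43-fold lower, limma adjusted p = 0.00101). The second probe went from 0.85 ± 0.08 to -0.23 ± 0.08, a fall by 1.08 (standard error 0.14, adjusted p = 0.00143). The change within slide 1 was -1.29 (adjusted p = 0.149) and within slide 2 it was -1.26 (0.271), of like size but without the call. ALDH3B1 read 0.90, 0.80, 0.56 and 0.71 with HGF, below every unstimulated 16HBE-ex14 array and within the range of the unstimulated wild-type arrays. It fell by 0.84 (standard error 0.13, 1.79-fold lower, adjusted p = 0.00271). Within the slides the change was -0.72 (adjusted p = 0.268) and -0.96 (0.271). Of its other probes, the one at 67793516 was called (-0.76, adjusted p = 0.0101), the one at 67786661 was below the fold change limit (-0.41, 0.0303) and the one at 67792022 did not pass (-0.49, 0.133).

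CYP1B1, a cytochrome of the AHR programme that oxidises hydrocarbons, oestrogens and retinoids, was at the edge of the call. Its brightest probe (chromosome 2, 38295444 to 38295503) read 6.14, 6.02, 6.37 and 6.46 without HGF and 4.80, 5.88, 4.98 and 5.30 with HGF. The groups did not overlap, with 16HBE-ex14+HGF replicate 2 closest to the unstimulated arrays. The change was -1.01 (standard error 0.26, 2.01-fold, limma adjusted p = 0.0538) and missed the adjusted threshold. It passed under 8 of 13 other settings of processing and fit, which gave limma adjusted p from 0.0167 to 0.103. With 1 array left out it passed in 2 of 16 fits, without 16HBE-ex14+HGF replicate 2 (-1.22, adjusted p = 0.0247) or without 16HBE-WT replicate 3 (-1.01, 0.0422). The other 14 fits did not pass, with adjusted p up to 0.166. Within slide 1 the change was -0.74 (adjusted p = 0.547) and within slide 2 it was -1.27 (0.313), without the call. The second probe (38297706 to 38297765) gave -0.97 (adjusted p = 0.103), and its groups overlapped.

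AHR read 1.73, 1.85, 1.80 and 1.90 without HGF and 1.25, 1.12, 1.54 and 1.38 with HGF in 16HBE-ex14 cells, again without overlap. The change of -0.50 (standard error 0.13, 1.41-fold, limma adjusted p = 0.0549) reached neither limit. Its second probe on chromosome 7 (17382763 to 17382822) gave -0.46 (adjusted p = 0.0713). AHRR changed by -0.26 (interval -0.65 to 0.13), TIPARP by 0.03 (-0.18 to 0.24), ALDH1A3 by -0.03 (-0.33 to 0.26), ALDH3A1 by -0.17 (-0.70 to 0.35) and CYP1A1 by 0.41 (-0.24 to 1.05), and the groups overlapped for each of these.

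**Figure D2:**
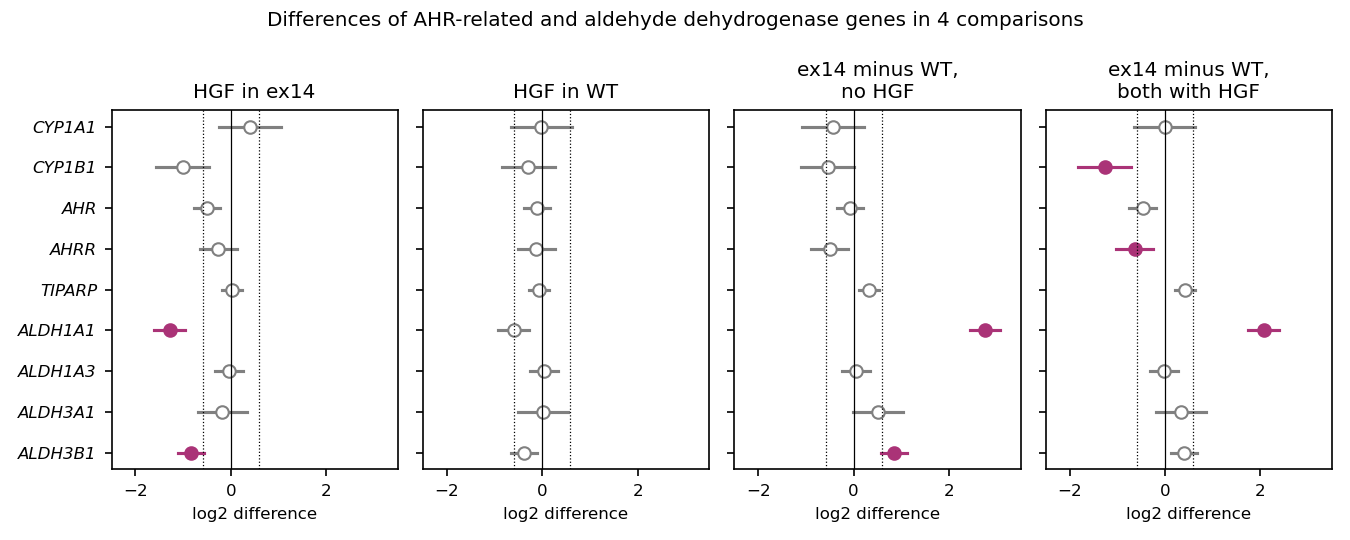
Log2 differences of the 9 genes (brightest probe) in 4 comparisons, with 95% intervals from limma. Filled points passed both thresholds, dotted lines mark a fold change of 1.5, and the 4 panels share arrays with each other. ALDH1A1 is at 2.75 and 2.07 between the genotypes and at -1.28 with HGF in 16HBE-ex14, while no gene is filled for HGF in 16HBE-WT.

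In 16HBE-WT cells none of the 9 genes was called with HGF, and 0% of all genes were. limma found 1694 of 34600 probes at an unadjusted p below 0.05, with a smallest adjusted p of 0.549, and 2 of the 9 genes were among those with an unadjusted p below 0.05. ALDH1A1 read 1.07, 1.10, 1.07 and 1.23 with HGF, below all 4 unstimulated arrays. Its change was -0.60 (standard error 0.15, unadjusted p = 0.0014, adjusted p = 0.796), and the second probe gave -0.18 (interval -0.47 to 0.10). ALDH3B1 read 0.28, 0.50, 0.20 and 0.38, a change of -0.39 (standard error 0.13, adjusted p = 0.871) with 1 stimulated array inside the unstimulated range. CYP1B1 read 6.74, 6.88, 6.27 and 6.13, a change of -0.29 (interval -0.85 to 0.27). The changes of AHR (-0.10) and AHRR (-0.12) had intervals from -0.38 to 0.17 and from -0.51 to 0.27.

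Whether HGF acted differently in the genotypes was tested as the difference of both responses. None of the 9 genes was called, as were 0% of all genes, and limma gave 1600 of 34600 probes at an unadjusted p below 0.05 and a smallest adjusted p of 0.213. For ALDH1A1 the difference of the responses was -0.68 (standard error 0.21, unadjusted p = 0.0062, adjusted p = 0.773) by the brightest probe and -0.90 (standard error 0.19, adjusted p = 0.45) by the second. For CYP1B1 it was -0.72 (interval -1.51 to 0.07), for AHR -0.39 (-0.78 to -0.01) and for ALDH3B1 -0.45 (-0.84 to -0.07), all with adjusted p of at least 0.98. So the calls made in 16HBE-ex14 and not in 16HBE-WT were not shown to differ between the genotypes.

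Between the stimulated genotypes, ALDH1A1 was higher and CYP1B1 and AHRR were lower in 16HBE-ex14+HGF than in 16HBE-WT+HGF cells. These 3 of 9 genes compare with 10.7% of all genes. By adjusted p alone 6 of the 9 genes passed, against 20.6% of all genes, the others being AHR, TIPARP and ALDH3B1. The median difference of the 9 genes was -0.01, against 0.00 over all genes.

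ALDH1A1 differed by 2.07 (standard error 0.15, 4.20-fold, limma adjusted p = 6.51e-07), and its second probe by 1.05 (standard error 0.14, adjusted p = 9.1e-05). The difference was 2.06 within one slide and 2.08 within the other, both called. CYP1B1, at 6.50 ± 0.36 in 16HBE-WT+HGF and 5.24 ± 0.48 in 16HBE-ex14+HGF (SD, n = 4), was lower, with a log2 difference of -1.26 (standard error 0.26, 2.40-fold, adjusted p = 0.0031) and no overlap between the arrays. The second probe was called as well (-1.13, standard error 0.29, adjusted p = 0.0126). Within the slides CYP1B1 differed by -1.47 (adjusted p = 0.0846) and -1.06 (0.0991).

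AHRR (chromosome 5, 438030 to 438089) read -1.96, -1.71, -1.92 and -2.05 in 16HBE-WT+HGF and -2.70, -2.44, -2.44 and -2.61 in 16HBE-ex14+HGF. The arrays did not overlap, and the difference was -0.64 (standard error 0.18, 1.56-fold, limma adjusted p = 0.0226), close to the fold change limit. The call was lost with normexp background correction (-0.42, below the fold change limit), with scaling to the median (-0.54, adjusted p = 0.0937) or to spike-in RNA (-0.60, 0.0593), within either slide, and without 16HBE-ex14+HGF replicate 1 (0.0597), 16HBE-WT+HGF replicate 2 (0.0671) or 16HBE-ex14+HGF replicate 4 (0.0543). AHR differed by -0.47 (standard error 0.13, 1.39-fold, adjusted p = 0.017), below the fold change limit. Its second probe gave -0.37 (adjusted p = 0.0502) and reached neither limit. On the brightest probe, 16HBE-WT+HGF replicate 1, at 1.46, lay within the range of the 16HBE-ex14+HGF arrays. Without that array the difference was -0.59 and passed both limits (limma adjusted p = 0.00388), as it did in only 1 of 16 fits with 1 array left out. TIPARP read 3.15, 3.02, 3.21 and 3.12 against 3.47, 3.64, 3.52 and 3.51, with no overlap, a difference of 0.41 (standard error 0.10, 1.33-fold, adjusted p = 0.0071) below the fold change limit. ALDH3B1 was higher by 0.40 (standard error 0.13, 1.32-fold, adjusted p = 0.036), below that limit too. Its probes at 67792022 (0.442, limma adjusted p = 0.0634) and 67793516 (0.345, 0.105) reached neither limit. The probe at 67786661 (0.355, 0.0148) passed by adjusted p alone.

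**Figure D3:**
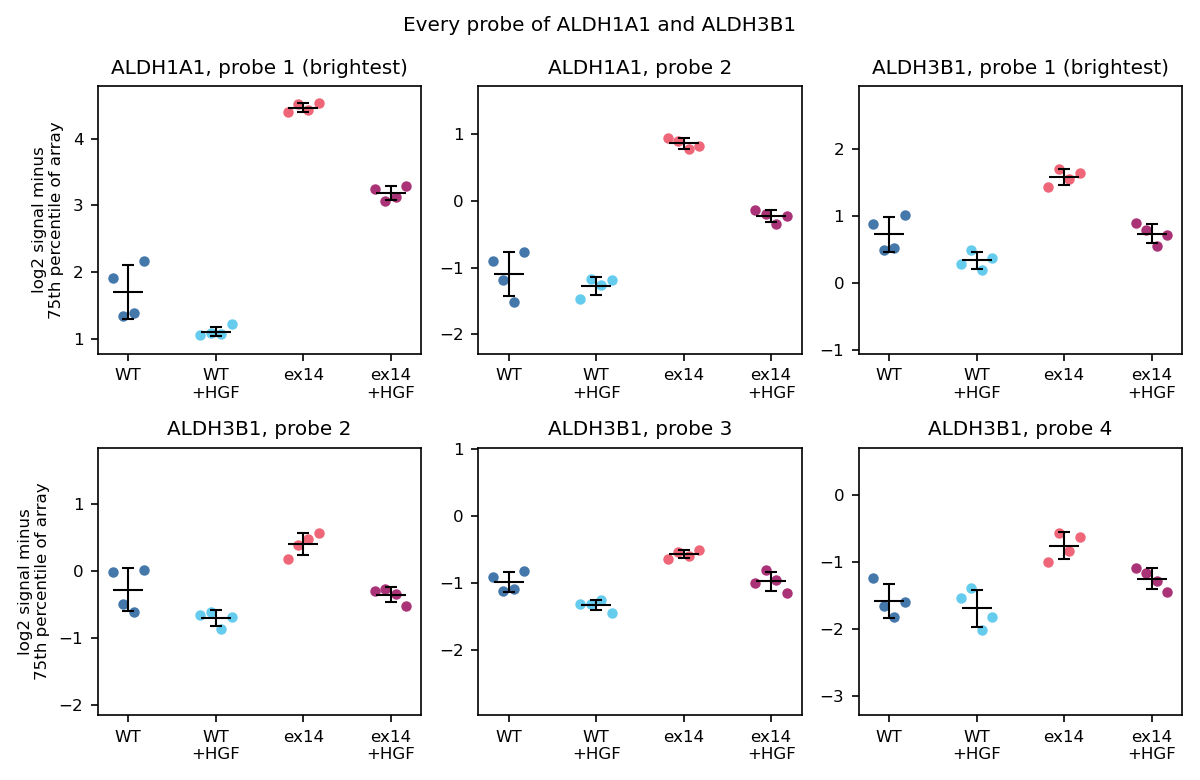
Every probe of ALDH1A1 (2 probes) and ALDH3B1 (4 probes) on the 16 arrays, as log2 signal minus the 75th percentile of the array, with 1 point per array and mean ± SD of 4 arrays in black. Each panel spans the same number of log2 units. On each of the 6 probes the 4 16HBE-ex14 arrays lie above the 4 16HBE-WT arrays and above the 4 16HBE-ex14+HGF arrays.

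Order of the group means differed between the genes. ALDH1A1 and ALDH3B1 both ran from 16HBE-ex14 through 16HBE-ex14+HGF and 16HBE-WT to 16HBE-WT+HGF. For ALDH1A1 no neighbours in this order overlapped, although the last step was not called. For ALDH3B1 the means of 16HBE-ex14+HGF and 16HBE-WT, 0.74 and 0.73, lay within their spread. CYP1B1 and AHRR ran from 16HBE-WT through 16HBE-WT+HGF and 16HBE-ex14 to 16HBE-ex14+HGF, with overlap between neighbours except for CYP1B1 in the last step. TIPARP had both 16HBE-ex14 groups above both wild-type groups.

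CYP1A1, the AHR target that is induced most sharply by ligands, was dim in all groups. Its probe on chromosome 15 (75012562 to 75012621) was well above background on 13 of 16 arrays, at -3.65 ± 0.49 without and -3.67 ± 0.47 with HGF in 16HBE-WT and at -4.08 ± 0.37 without and -3.68 ± 0.47 with HGF in 16HBE-ex14 (SD, n = 4). The lowest signals called well above background lay between -4.95 and -3.77 on the arrays, so lower levels than these were not measurable. The largest difference between group means was 0.43, less than the pooled SD of 0.46. ALDH1A3, a retinaldehyde dehydrogenase, was at 4.95 ± 0.22, 4.99 ± 0.12, 5.00 ± 0.25 and 4.97 ± 0.13 in the same order, and its group means lay within 0.05 of each other. The 95% intervals of its 4 differences stayed between -0.33 and 0.34. ALDH3A1 stood at -2.03 ± 0.49, -2.01 ± 0.42, -1.51 ± 0.25 and -1.68 ± 0.23, with a difference between the unstimulated genotypes of 0.52 (interval 0.00 to 1.04, limma adjusted p = 0.169), and 0.24 (-0.22 to 0.69) by its second probe. A second TIPARP probe (chromosome 3, 156393033 to 156393092) was well above background on 2 of 16 arrays and was not tested.

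Deviations from the group means give a description of how the genes moved together within groups. Over the 16 arrays these deviations correlated at r = 0.81 for ALDH1A1 and ALDH3B1, at 0.62 for CYP1B1 and AHRR, at -0.27 for CYP1B1 and AHR and at 0.25 for AHR and AHRR. Other pairs ran from -0.63 (CYP1A1 and AHR) to 0.77 (TIPARP and ALDH1A3). CYP1B1 correlated at 0.69 with ALDH3A1 and at 0.63 with ALDH1A3, so its value with AHRR was not particular to that pair. The points share their arrays, so anything that scales a whole array enters all of these values. In 16HBE-WT, replicates 1 and 4 had the highest readings of CYP1B1, AHRR, ALDH1A1 and ALDH3B1.

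Genes most like each of the 9 were found by Pearson's r over the 16 arrays among 21968 genes well above background on at least 12 arrays. The r values hold the differences between the 4 groups and carry no test. ALDH1A1 was most like CCL2, a monocyte chemokine (r = 0.98), FBLN1, the matrix protein fibulin-1 (0.98), and SCNN1A, a subunit of the epithelial sodium channel (0.98). Their levels in 16HBE-WT and 16HBE-ex14 were -2.10 and 1.85, 2.00 and 4.01, and -0.86 and 0.72. ALDH3B1 was most like PPL, which encodes the desmosomal linker periplakin, CARHSP1 and LOC388242, each at r = 0.95. CYP1B1 was most like the unnamed probe A_33_P3421674 (r = 0.95), PTGES, a prostaglandin E synthase (0.93), and VGLL2 (0.92), and AHRR was most like VGLL2 (0.94), SH3BP4 (0.92) and MTFR2 (0.91). The mean level of PTGES was -2.92 without and -3.58 with HGF in 16HBE-ex14. TIPARP was most like KAT8, a histone acetyltransferase (0.96), CAPN2, a calpain (0.96), and ALDH1L1 (0.95). AHR was nearest to TMUB2 (0.94), IRF1, an interferon-regulated transcription factor (0.94), and IQCJ-SCHIP1 (0.93). The nearest genes were CENPBD1P1, ZBED6CL and KAT5 at 0.91 for ALDH1A3, ARFGAP2, GARS and HNRNPA1L2 at 0.89 for ALDH3A1, and SLC24A2 (0.85), SMIM10L2A (0.82) and lnc-UBB-2 (0.81) for CYP1A1.

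Among the partners and chaperones of AHR, 1 of 5 genes was called, in 3 comparisons in which 2.11% (HGF in 16HBE-ex14), 9.25% (genotypes without HGF) and 10.7% (genotypes with HGF) of all genes were called. This was ARNT2, a relative of the AHR partner ARNT, at 0.16 ± 0.16 without and 0.19 ± 0.11 with HGF in wild-type cells and at -1.55 ± 0.16 without and -0.60 ± 0.23 with HGF in 16HBE-ex14 cells (SD, n = 4). It was lower in 16HBE-ex14 without HGF by a log2 difference of -1.72 (standard error 0.13, limma adjusted p = 7.28e-07), rose with HGF there by 0.95 (adjusted p = 0.00156) and was still lower than in 16HBE-WT+HGF (-0.80, adjusted p = 0.000443). ARNT itself, HSP90AA1, HSP90AB1 and the co-chaperone PTGES3 were not called in any of the 5 comparisons, with a median of the 5 genes of 0.07 for HGF in 16HBE-ex14 and -0.06 between the unstimulated genotypes.

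Of 10 further AHR-responsive genes, 9 were on the array and 7 were tested. None was called with HGF in either genotype. Between the unstimulated genotypes 1 was higher and 2 were lower in 16HBE-ex14, or 3 of 7 against 9.25% of all genes, and with HGF 1 was higher and 1 lower, or 2 of 7 against 10.7%. The medians were 0.31 and 0.15. Of the genes lower without HGF, PTGS2 passed the filter on dim probes through the wild-type arrays. EREG, the growth factor epiregulin, was higher by 1.06 (limma adjusted p = 6.96e-05) without and by 0.93 (0.000159) with HGF. UGT1A6, a glucuronosyltransferase whose gene shares exons with the other UGT1A genes, was lower, with differences of -0.70 (0.0226) and -0.97 (0.00278). PTGS2, the inducible cyclooxygenase, was called without HGF (limma adjusted p = 0.0296), but it was well above background on 4 of 4 16HBE-WT arrays, at -4.16 to -3.49, and on 1 of 4 16HBE-ex14 arrays, so no size is given for its difference. NQO1, CYP1A2, CYP2S1 and SLC7A5 were not called. Of these, CYP2S1 passed by adjusted p alone with HGF in 16HBE-ex14 (-0.49, limma adjusted p = 0.039) and between the stimulated genotypes (-0.46, 0.0119).

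Of 15 other aldehyde dehydrogenases 13 were tested, and none was called with HGF in either genotype. Without HGF 3 were higher and 1 was lower in 16HBE-ex14, or 4 of 13 against 9.25% of all genes, with a median of 0.02. With HGF likewise 3 were higher and 1 lower, against 10.7% of all genes, with a median of -0.13. ALDH1L1 and ALDH1L2, which oxidise formyl-tetrahydrofolate in the cytosol and in mitochondria, were higher by 0.98 (limma adjusted p = 0.000934) and 0.93 (0.00135) without HGF and by 0.98 (0.000784) and 1.16 (0.000206) with HGF. ALDH2, the mitochondrial enzyme of acetaldehyde, was lower, with differences of -0.64 (0.0183) and -1.07 (0.000559). ALDH18A1, a proline synthesis enzyme, was called higher in 16HBE-ex14+HGF than in 16HBE-WT+HGF (0.74, 0.000315). Between the unstimulated genotypes its difference of 0.46 (0.00955) was below the fold change limit. ALDH5A1, which oxidises succinic semialdehyde, was called without HGF (0.60, 0.00491) and is named after its value was seen.

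In the retinoid pathway 11 of 15 genes were tested. Between the genotypes 1 was higher and 1 lower in 16HBE-ex14, both without HGF, where 9.25% of all genes were called, and with HGF, where 10.7% were. CRABP2, which carries retinoic acid to its receptors, went from 0.76 ± 0.06 in 16HBE-WT to 2.32 ± 0.24 in 16HBE-ex14 (SD, n = 4), a difference of 1.56 (standard error 0.14, limma adjusted p = 5.44e-06), and differed by 1.08 (9.83e-05) between the stimulated genotypes. STRA6, the receptor for retinol-binding protein, was lower, with differences of -0.92 (standard error 0.18, adjusted p = 0.00215) and -0.90 (0.00216). The median of the 11 genes was 0.09 without HGF and -0.18 with HGF. The receptors RARA, RARB, RARG and RXRA were not called, and none of the 11 genes was called with HGF in either genotype. RARG passed by adjusted p alone with HGF in 16HBE-ex14 (-0.54, limma adjusted p = 0.00589) and between the unstimulated genotypes (0.31, 0.0309).

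Of 3 markers of airway basal cells 2 were called lower between the unstimulated genotypes, where 9.25% of all genes were called. The same 2 were called lower with HGF in 16HBE-ex14, where 2.11% were. KRT5 and KRT14 were lower in 16HBE-ex14 than in 16HBE-WT without HGF (-2.57 and -1.74) and lower again with HGF in 16HBE-ex14 (-2.32 and -0.97). TP63 was not called, with differences of -0.07 between the unstimulated genotypes and 0.43 with HGF in 16HBE-ex14. The summed level of the 3 genes lay between 3.03 and 3.56 on the 16HBE-WT arrays, 2.57 and 3.13 on 16HBE-WT+HGF, 0.91 and 1.33 on 16HBE-ex14 and -0.29 and -0.12 on 16HBE-ex14+HGF, and all 3 were well above background on all 16 arrays. Its part in the differences of the 9 genes was not tested. Among 6 fibroblast markers COL1A1 and PDGFRB were well above background on all 16 arrays and 3 were above background on no array. LUM, well above background on all 8 wild-type arrays and on no 16HBE-ex14 array, passed the filter on dim probes only through the wild-type arrays. It was called lower in 16HBE-ex14 with and without HGF, but no size is given for its difference. The summed level of the fibroblast list was between -0.87 and 0.05 in 16HBE-WT and between -1.63 and -0.98 in 16HBE-ex14, and its part was not tested either.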

How the data were processed

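Expression was measured on 16 one-colour arrays in 4 groups of 4. The authors deposited scanner files of Agilent Feature Extraction 10.7.3.1 (per the labels) with spot intensity values, which per the file headers are background-subtracted, detrended, linear and not scaled between arrays. Probe positions are on hg19. Gene names are those of the array design. A deposited table of all samples repeats these intensity values and was not used.

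Spots marked as outliers were left out, log2 was taken, the 75th percentile of each array over non-control spots was subtracted, and replicate spots were averaged. Tests covered the 34600 of 58201 probes that were well above background on 4 or more of the 16 arrays. limma 3.58.1 in R 4.3.3 was fitted with 1 mean per group over all 16 arrays and 5 contrasts, without covariates. Benjamini-Hochberg adjustment covered all tested probes of a contrast, with the limits of the study, adjusted p below 0.05 and fold change above 1.5. The fit was tested on simulated data. Figures used matplotlib 3.10.9 in Python 3.11.15. Arrays give no counts, so their number limits the precision.

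All members were named with all their probes. From each list the genes called in any contrast were named, up to 4 by size of change, and for each member the 3 genes of highest Pearson r. The members and lists were chosen with earlier results of these data known. Lists were AHR partners and chaperones, other AHR-responsive genes, other aldehyde dehydrogenases, the retinoid pathway, and markers of simple epithelium, airway basal, secretory and ciliated cells, fibroblasts, leukocytes and endothelium. Alternatives were normexp with an offset of 50, quantile, median and E1A spike-in scaling, other filters, keeping outlier spots, blocking on slide or on array row, single slides, only the compared groups, the mean of a gene's probes, a trended robust prior, array weights, no fold limit and leaving out each array. Other experiments of the study were not analysed here, and whether exon 14 is skipped was not checked on these arrays. Protein sequences were not used here. A further gene of the AHR partner list is not reported here.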

Additional observations from a re-analysis of the deposited data

Results flagged for a closer look

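ALDH3A1 on the array of 16HBE-ex14 replicate 3 read -1.13, against -1.60 for the nearest of the other 3 arrays of that group, a gap of 0.871 of the range of the 4 values, above Dixon's critical value for 4 samples. It was 1 of 36 groups of 4 arrays examined for the 9 genes, and chance alone marks about 1 in 20. No difference between the HGF responses of the genotypes passed the thresholds for these genes.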

How the results depend on the processing

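With HGF in 16HBE-ex14 the count of called genes was 2, between 2 and 3 when 1 array at a time was left out, 2 or 3 under the other settings of processing and fit, and 0 within slide 1 and within slide 2. Between the unstimulated genotypes it was 2, between 2 and 3 without 1 array, and 1 within either slide, which was ALDH1A1. Between the stimulated genotypes it was 3, between 2 and 4 without 1 array, 1 within either slide (ALDH1A1) and 6 without the fold change limit. Single slides hold 2 arrays per group. With HGF in 16HBE-WT and for the difference of the responses it was 0 under each setting run, the latter not fitted on the compared groups alone, which are all groups. With slide as a block the count for HGF in 16HBE-ex14 was 3, as CYP1B1 (-1.01, limma adjusted p = 0.0462) was called beside ALDH1A1 and ALDH3B1. With array row as a replicate block the counts were 2, 0, 2, 3 and 0, so the row block changed no call. The labels give no pairing by row, and not every pair in the same row exceeded 0.1. Deviations from the group means correlated between 0.03 and 0.32 for the 24 pairs of arrays in the same row (median 0.205, 20 pairs over 0.1). For the 72 pairs in other rows and of different groups they lay between -0.36 and 0.41 (median -0.126, 19 pairs over 0.1). Compared with arrays of other groups only, 4 of 16 arrays were closest to an array of their own row. Of 1381 single values of a gene under another setting, 16 lost and 13 gained a call, and 54 changed sign, none of them called. ALDH1A1 and ALDH3B1 lost no call under those settings or without 1 array, and those lost within a slide were ALDH1A1 with HGF in 16HBE-ex14 and ALDH3B1. The cause of these moves was not tested. Signals near background, as for CYP1A1, limit what could be measured.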

Other observations

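Markers of other airway and lung cell types were also read. Of 3 secretory and ciliated markers (SCGB1A1, MUC5AC and FOXJ1) 1 was well above background on all 16 arrays, and none was called in any comparison. Their summed level lay between -1.37 and -0.77 in 16HBE-WT and between -1.12 and -0.87 in 16HBE-ex14+HGF. Of 3 endothelial markers 2, CDH5 and VWF, were well above background on all 16 arrays and 1, PECAM1, on no array, and none was called. Of 3 leukocyte markers 2, PTPRC and CD3E, were on the array, both well above background on all 16 arrays. CD3E was called lower in 16HBE-ex14 than in 16HBE-WT without HGF (-0.98, limma adjusted p = 0.0242).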
